A study of Mus musculus with 2 samples.

Results

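The replication-dependent histone genes are described here in 2 bulk RNA sequencing libraries of cells sorted as keratinocytes from mouse skin. They were chosen by symbol, as H1f1 to H1f6 and all genes of the current H2ac, H2bc, H3c and H4c series, a rule that uses no measured value. The rule took 65 of the 50559 genes in the count tables: 6 H1, 18 H2A, 17 H2B, 12 H3 and 12 H4 genes. Both libraries belong to 1 group. Live GFP-positive keratinocytes were sorted from dorsal skin of mice aged 21 days after birth, when hair follicles rest (telogen). All mice carried Polr2b.fl.fl.GFP, a floxed allele of an RNA polymerase II subunit gene with GFP, and K14Cre, a Cre recombinase driven by the keratin 14 promoter of basal keratinocytes and their descendants. Other genotypes, treatments and ages were not analysed here, so each comparison is between histone genes or between the replicates. The RNA was total RNA depleted of ribosomal RNA, which keeps transcripts without a poly(A) tail.

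Histones package DNA. The core histones H2A, H2B, H3 and H4 form the nucleosome in equal numbers, and the linker histone H1 binds where DNA enters and leaves it. Replication-dependent histone genes lie in clusters, lack introns as a rule, and are transcribed mainly in S phase, when new chromatin is made. Their mRNAs end in a conserved stem-loop in place of a poly(A) tail. The stem-loop is bound by SLBP, and cleavage of the pre-mRNA after the stem-loop depends on the U7 snRNP. Replacement histones such as H3.3 and H2A.Z come from other, polyadenylated genes and are made throughout the cell cycle and in cells that no longer divide.

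The stem-loop itself separated the H4 genes from the other classes. The histone stem-loop motif, read on the sense strand, was found in transcripts of 41 of the 64 members matched to GENCODE M21, and in 82 of all 55450 genes of that annotation (0.148%). The sites below are shown because their stem differs between classes: 1 site is given per class, with the motif in capitals and 5 flanking bases on each side.
H1f2: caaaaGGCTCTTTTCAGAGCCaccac
H2ac4: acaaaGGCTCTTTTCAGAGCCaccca
H2bc8: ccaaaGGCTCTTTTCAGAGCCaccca
H3c3: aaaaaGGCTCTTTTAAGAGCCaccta
H4c4: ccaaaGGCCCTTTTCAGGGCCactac
All 9 H4 sites began with GGCCC and ended with GGGCC, while all 32 sites of the other classes began with GGCTC and ended with GAGCC. The site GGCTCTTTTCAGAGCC was the most frequent, in 24 members, and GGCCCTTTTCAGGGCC stood in 6, all of them H4 genes. The other 23 matched members had no match. Some of their annotated transcripts stop near the end of the coding region, so no match says only that these letters are not in the annotated sequence.

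Promoters also differed by class. RefSeq promoter windows (GRCm38.p6, 250 bases before to 50 after the start) were matched for 58 of 65 members, and motifs were searched on both strands. The CCAAT box (CCAAT) was in all 6 H1, 17 H2A, 14 H2B and 10 H3 genes matched, in 3 of 11 H4 genes, and in 37.4% of all 32851 promoters. The H4 site GGTCCG, part of the element known to bind the H4 regulator HINFP, was in 10 of 11 H4 genes. It was in 1 H2B and 1 H3 gene, in no H1 or H2A gene, and in 8.25% of all promoters. The octamer ATTTGCAT, bound by OCT1 (Pou2f1), was in 7 of 14 H2B and 6 of 17 H2A genes, in none of the other classes and in 1.74% of all promoters. Many H2A and H2B genes lie back to back and their windows overlap, so these counts share sites. The H1 AC box AAACACA was in 5 of 6 H1 genes, against 7.18% of all promoters, and the TATA box TATAAA was in 34 of 58 members, against 13.6%. Matches of 2 different motifs overlapped in 1 of 59 member windows. A match is a description of the letters, and binding was not measured.

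**Figure D1:**
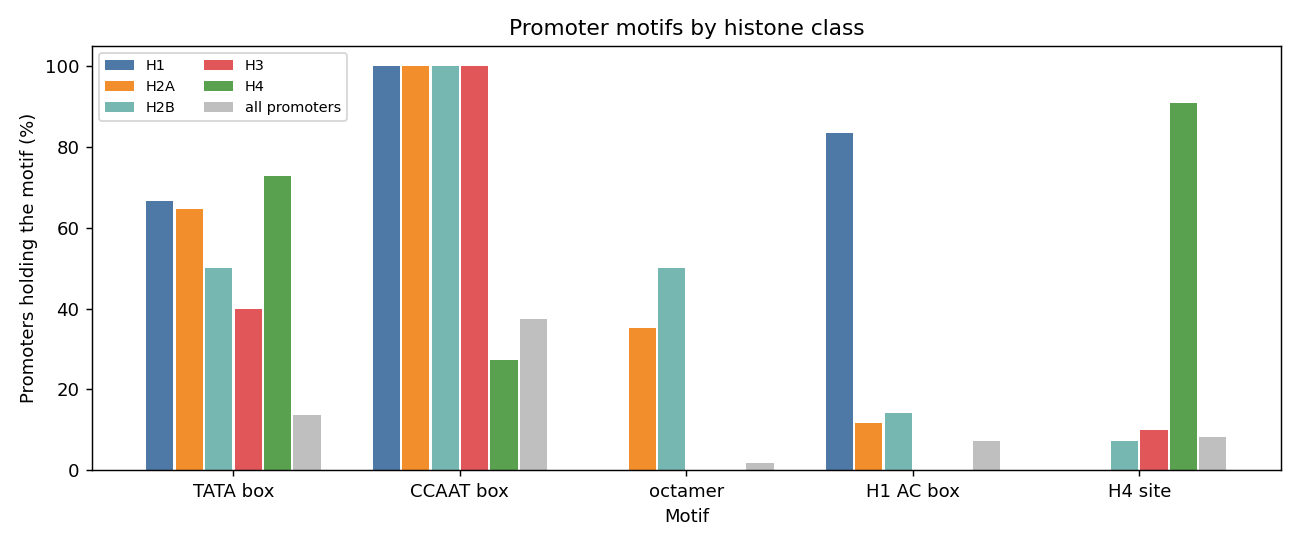
Share of promoter windows (%) that hold each of 5 motifs, for the matched genes of each histone class and for all RefSeq promoters (grey). The H4 site stands in 10 of 11 H4 genes, and the CCAAT box in every matched gene of the other 4 classes.

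The 150 bases before the start are printed for the leading H4 gene, the leading H2B gene and the leading H1 gene, since they show the H4 site, the octamer and the H1 AC box in place. Capitals mark any of the 5 motifs on either strand. The windows are chr13:23581418-23581567 (plus strand) for H4c4, chr13:23571250-23571399 (plus strand) for H2bc8 and chr13:23738657-23738806 (plus strand) for H1f2, all in GRCm38.p6.
H4c4: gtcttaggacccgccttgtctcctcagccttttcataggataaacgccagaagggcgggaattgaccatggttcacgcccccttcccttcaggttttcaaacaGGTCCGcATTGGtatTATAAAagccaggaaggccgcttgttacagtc
H2bc8: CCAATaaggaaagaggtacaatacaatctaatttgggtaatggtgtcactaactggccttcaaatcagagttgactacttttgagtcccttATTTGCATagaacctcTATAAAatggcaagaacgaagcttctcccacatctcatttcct
H1f2: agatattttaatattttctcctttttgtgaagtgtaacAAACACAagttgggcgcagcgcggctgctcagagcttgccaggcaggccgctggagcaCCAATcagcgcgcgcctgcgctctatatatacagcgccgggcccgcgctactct
H4c4 holds the H4 site beside a TATA box, H2bc8 the octamer beside a TATA box, and H1f2 the AC box upstream of a CCAAT box, with no TATAAA in its window.

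Replicate 1 held 36692204 counts and replicate 2 held 33489967. Histone genes took 59686 of them in replicate 1 (0.163%) and 35376 in replicate 2 (0.106%). Transcripts tied to sex differed between them, with 112587 counts of Xist in the first library against 11 in the second, and for the Y-linked Uty none against 2394. The Y-linked Ddx3y likewise had none against 1618. Sex-linked expression thus goes with the replicate in every ratio below, and sex and replicate cannot be told apart. The labels do not name the animals behind each library, and the p-values below concern these libraries only. All 12 keratinocyte markers passed 1 CPM in both libraries (CPM is the count scaled to the library total). So did all 10 fibroblast and all 10 macrophage markers, although a keratinocyte gate had been used. The keratinocyte markers summed to 19367 and 29262 CPM, the fibroblast markers to 14653 and 7313 CPM and the macrophage markers to 8068 and 8742 CPM. The libraries thus did not hold keratinocyte RNA alone.

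Levels of different genes are compared as TPM, the count per base of deposited gene length scaled to the same total in each library. Of the 65 histone genes, 54 reached 1 CPM in both libraries, beside 31.3% of all genes in the tables. In both, 50 were at 10 TPM or more and 14 at 100 TPM or more. Levels are given as descriptions, without a test.

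**Figure D2:**
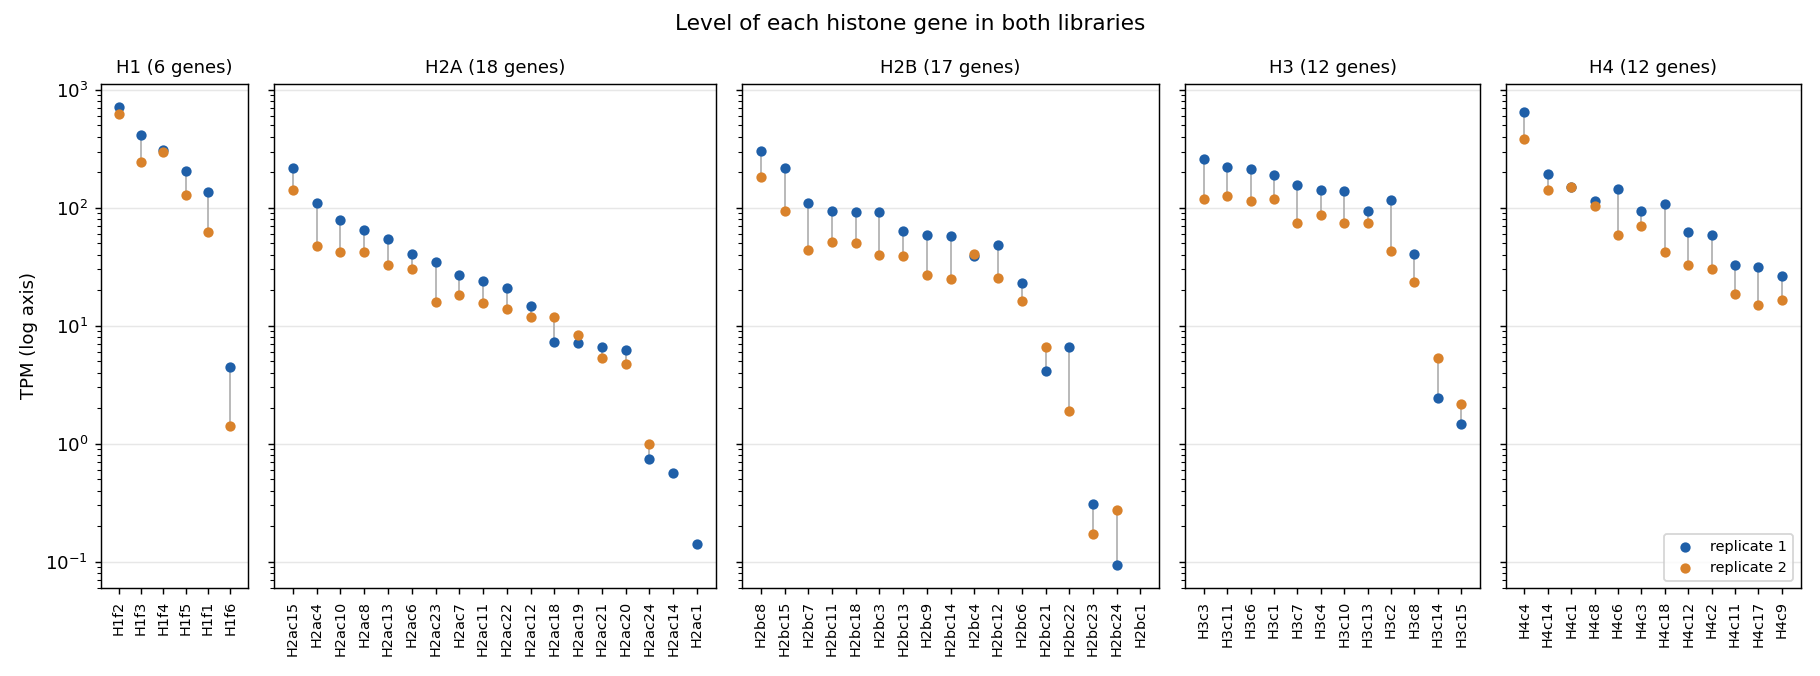
TPM (log axis) of every histone gene in replicate 1 (blue) and replicate 2 (orange), by class and in order of the mean. Genes at 0 are not drawn: H2bc1 in both libraries, and H2ac14 and H2ac1 in replicate 2. Most blue points lie above the orange, and H4c1, H1f4 and H2bc4 show nearly equal levels.

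Among the genes of the rule, the linker histones held the largest class sum in both libraries. The 6 H1 genes summed to 1788 TPM in replicate 1 and 1357 TPM in replicate 2, or 28.4 ± 3.77% of the histone total (SD, n = 2). H4 followed with 1657 and 1066 TPM (24.1 ± 0.380%), then H3 with 1581 and 860 TPM (21.2 ± 2.17%). H2B had 1210 and 644 TPM (16.1 ± 1.89%), and H2A had 713 and 443 TPM (10.2 ± 0.0930%). This order was the same in each library, although the mean sums of neighbouring classes differed by less than the SD of either, except that H2B and H2A differed by more than the SD of H2A. It depends on the scaling by length: as CPM, H1 held 36.3% and H4 16.7%, and H3 stood second with 21.2%. It also depends on the rule: H4f16, an H4 gene outside it, had 262 and 188 TPM. With H4f16 counted, H4 would exceed H1 in replicate 1, though not in replicate 2. The shares, though not the order, also moved when members with much shared sequence were left out. That step removed no H1 gene, so it could not displace H1.

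**Figure D3:**
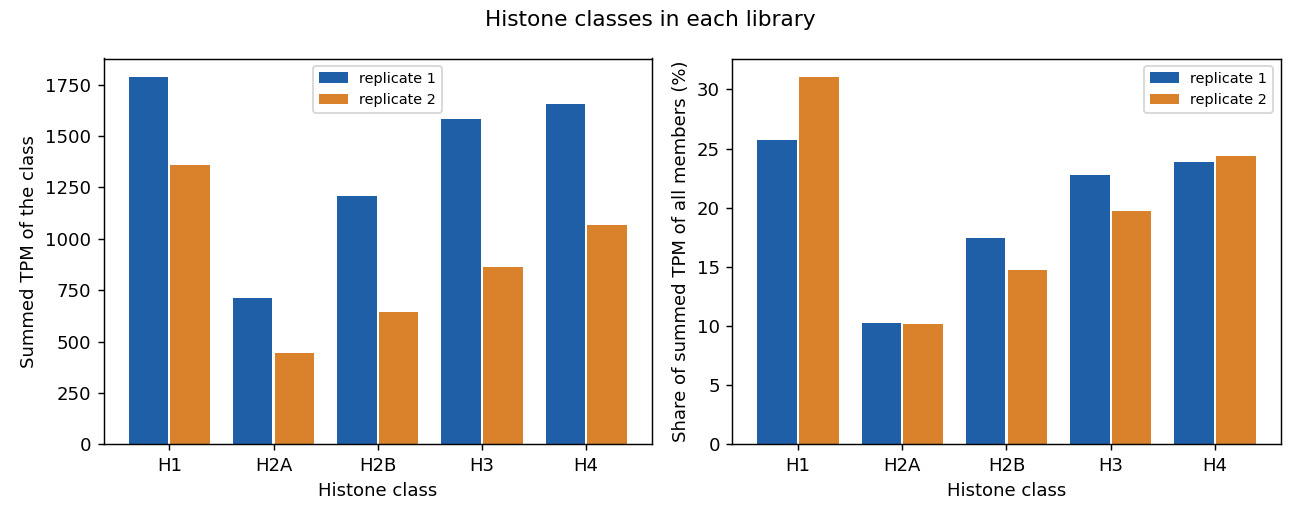
Left, summed TPM of each histone class in replicate 1 (blue) and replicate 2 (orange). Right, the share (%) of each class in the summed TPM of all 65 genes. H1 is highest and H2A lowest in both libraries, and the H1 share is 25.7% in replicate 1 and 31.1% in replicate 2, that of H3 22.7% and 19.7%.

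Among the linker histones, H1f2 (H1.2) stood at 721 TPM in replicate 1 and 626 TPM in replicate 2, the highest mean of all 65 genes, at the 99.0 percentile of the 15833 detected genes. H1f3 (H1.3) had 414 and 244 TPM, and H1f4 (H1.4) 307 and 296 TPM. H1f5 (H1.5) had 207 and 127 TPM and H1f1 (H1.1) 135 and 62.0 TPM. The testis H1 gene H1f6 was lowest, with 49 and 14 counts. H1f2 and H1f4 differed least between the libraries, and all but H1f4 were lower in replicate 2 by the binomial test described below. H1f2 differed by 1.15-fold (95% interval 1.12 to 1.19) and H1f4 by 1.04-fold (0.989 to 1.09). H1f3, H1f5 and H1f1 were lower in replicate 2 by 1.70-fold (1.62 to 1.78), 1.62-fold (1.52 to 1.74) and 2.18-fold (1.99 to 2.40). The intervals of the last 3 genes do not meet those of H1f2 and H1f4. Intervals here are exact (Clopper-Pearson), come from the counts scaled to the library totals, and cover counting error only.

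The 12 H4 genes all reached 1 CPM in both libraries. Their annotated coding regions encode 1 and the same protein, so the transcripts differ only in silent bases and untranslated ends. H4c4 carried 37.8% of the class, with 643 and 385 TPM. H4c14 had 193 and 143 TPM, H4c1 149 and 150 TPM, and H4c9 was lowest with 26.1 and 16.6 TPM. H4c1 was 1.01-fold higher in replicate 2 and did not pass the binomial test (adjusted p = 0.958), whereas H4c18 and H4c6 were lower in replicate 2 by 2.57-fold (2.20 to 2.99) and 2.48-fold (2.17 to 2.84). Genes for an identical protein differed in their ratio by more than counting error.

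Of all classes, the 12 H3 genes leaned least on their leading gene, which held 15.6% of the sum. They encode 2 proteins, one from H3c1, H3c8, H3c10 and H3c11 and one from the other 8 genes, known as H3.1 and H3.2. The H3.1 genes gave 37.4% of H3 TPM in replicate 1 and 39.7% in replicate 2, and the H3.2 genes the remaining 62.6% and 60.3%. H3c3 led with 261 and 118 TPM, ahead of H3c11 with 222 and 126 TPM and H3c6 with 215 and 114 TPM. H3c15 was lowest with 14 and 19 counts. H3c2 had 863 counts in replicate 1 and 290 in replicate 2, a 2.72-fold difference (2.38 to 3.11). H3c14 went the other way, with 24 and 48 counts, a 2.19-fold difference (1.32 to 3.74).

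The leading H2B gene held 26.1% of its class. H2bc8 had 301 and 182 TPM, H2bc15 219 and 94.6 TPM, and H2bc7 110 and 43.8 TPM. H2bc15 and H2bc7 were lower in replicate 2 by 2.32-fold (2.11 to 2.55) and 2.52-fold (2.18 to 2.91). The testis gene H2bc1 had no count in either library, where 3 counts correspond to 0.0818 and 0.0896 CPM. Deposited gene models over 1000 bases, longer than a stem-loop mRNA, occurred only in this class: H2bc4, H2bc6, H2bc21, H2bc23 and H2bc24. H2bc4 was flat between the libraries, with 1334 and 1272 counts, and H2bc6 had 858 and 550. H2bc21 was higher in replicate 2, with 164 and 237 counts, or 1.58-fold (1.29 to 1.94). H2bc23 and H2bc24 had 3 to 10 counts per library. The counts do not show whether reads of these long models came from short stem-loop mRNAs or from longer polyadenylated ones.

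H2A was the lowest class. H2ac15 led with 216 and 142 TPM and held 31.0% of the class. H2ac4 had 109 and 47.0 TPM and H2ac10 79.4 and 41.9 TPM. H2ac14 had 3 and 0 counts, and the testis gene H2ac1 had 1 and 0. A single protein sequence was shared by 9 of the 17 H2A genes with an annotated coding region, and they gave 52.7% and 48.9% of H2A TPM. H2ac18 and H2ac19, which encode the same protein, had 60 and 63 counts in the first library and 89 and 67 in the second.

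H2A and H2B genes often lie head to head and share a promoter region. In GENCODE M21, 12 such pairs had starts 176 to 306 bases apart. The H2B gene stood above its H2A partner in TPM in both libraries in 6 pairs and below it in 2. The remaining 4 were tied at 0 in a library or changed order. Among those that changed order, H2ac6/H2bc4 and H2ac20/H2bc21 hold long H2B models (2303 and 2667 bases), and their order depends on the scaling by length. In counts the H2B gene was higher in both libraries. H2bc4 had 1334 and 1272 counts beside 291 and 200 for H2ac6, and H2bc21 had 164 and 237 beside 43 and 30 for H2ac20. In the leading pair, H2ac15 had 216 and 142 TPM and H2bc15 219 and 94.6 TPM. Their levels were almost equal in replicate 1 and separated in replicate 2. H2ac8 had 64.4 and 42.1 TPM beside 301 and 182 TPM for H2bc8, and H2ac7 had 26.9 and 18.3 TPM beside 110 and 43.8 TPM for H2bc7. In these pairs the H2B gene was far the higher in both libraries.

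**Figure D4:**
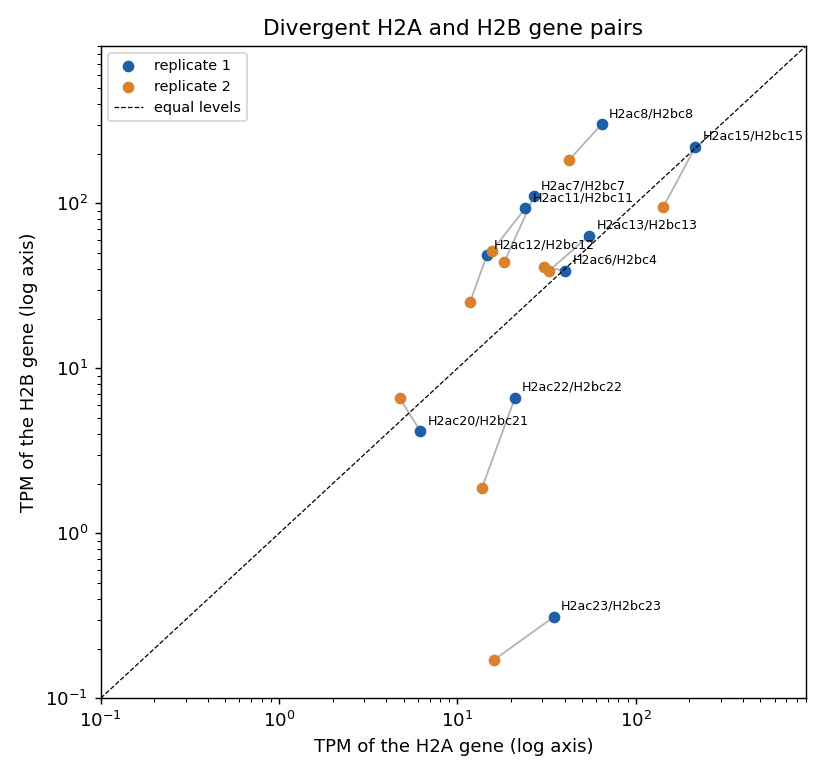
TPM of the H2A gene (x, log axis) and the H2B gene (y, log axis) of divergent pairs, with a line joining replicate 1 (blue) and replicate 2 (orange) of a pair. Pairs with a gene at 0 in a library are not drawn. Points above the dashed line have more H2B than H2A: H2ac8/H2bc8 lies above it in both libraries, and H2ac22/H2bc22 below.

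Counts of near-identical genes are uncertain, because how multi-mapping reads were counted is not stated. For each member, the share of its 100-base transcript stretches that also occur in another gene was taken from GENCODE M21. The median share was 0.396% for H1, 77.7% for H2A, 40.8% for H2B, 49.7% for H3 and 25.4% for H4. The leading H4 genes H4c4 and H4c14 shared none, while H2ac18, H2ac19, H2bc18, H3c13 and H3c14 shared 100%. Among the latter, H2bc18 and H3c13 stood at a mean of 71.8 and 83.5 TPM. The 21 members with a share of 25% or less had a median of 81.6 TPM, the 26 members above that and up to 75% had 68.9 TPM, and the 17 above 75% had 19.8 TPM. Across the 64 matched genes, Spearman's rho between share and mean TPM was -0.307, over points that come from the same 2 libraries. Among the 36 members sharing 50% or less, a limit chosen after seeing the data, the order of the class shares was the same. It ran from 36.3% for H1 and 26.7% for H4 to 6.23% for H2A. The limit removed 0 H1, 13 H2A, 5 H2B, 6 H3 and 4 H4 genes for their shared sequence. The first place of H1 was therefore fixed in advance, and the kept order is no support for it.

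Most histone genes were lower in replicate 2 than in replicate 1. Each gene's pair of counts was compared with the ratio of the library totals in a two-sided exact binomial test, adjusted by Benjamini-Hochberg over all 23690 genes with 10 or more counts. Of the 62 histone genes tested, 47 were lower in replicate 2, where 27.2% of all tested genes were, and 3 were higher, where 16.9% of all were. Small ratios pass this test at high counts: the keratinocyte marker Trp63, at 621 and 641 CPM, was called higher at a log2 ratio of 0.05. The shares over all tested genes were not matched to the members in counts. On CPM + 0.5, the members' median log2 ratio (replicate 2 over replicate 1) was -0.70, a 1.63-fold difference, beside -0.07 for all tested genes. By class the median was -0.73 for H1 (5 of 6 lower), -0.52 for H2A (10 of 16), -0.84 for H2B (12 of 16), -0.77 for H3 (10 of 12) and -0.73 for H4 (10 of 12). The summed counts of H1 differed least, by -0.40 on the log2 scale (-0.44 to -0.37). H3 differed most in summed counts, by -0.89 (-0.93 to -0.85), and H2B in summed TPM, by -0.91 against -0.88 for H3. TMM scaling lowers the library size of replicate 2 relative to replicate 1 by 0.08 on the log2 scale, which raises the ratios of genes. With it, 47 members were lower and 4 higher, H2bc4 being the added one, where 21.4% of all tested genes were lower and 22.7% higher. The 5 members with the largest difference at a mean of 5 CPM or more were H3c2, H4c18, H2bc7, H4c6 and H2bc15, with log2 ratios of -1.39, -1.30, -1.28, -1.26 and -1.19 and adjusted binomial p between 1.64e-74 and 1.37e-37.

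This test weighs counting error alone. Against the spread that edgeR estimated by treating both libraries as replicates, a coefficient of variation of 22.7%, 0 histone genes passed an adjusted p of 0.05 in edgeR's exact test in either direction, beside 0.19% of all tested genes lower and 0.0886% higher. The smallest adjusted p by edgeR was 0.255, for H3c2. At an unadjusted edgeR p under 0.05 stood 15 histone genes lower and 1 higher (H3c14), beside 5.23% and 1.96% of all tested genes. This spread was estimated from the same difference that was tested, so the count of 0 does not show that the genes were alike.

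**Figure D5:**
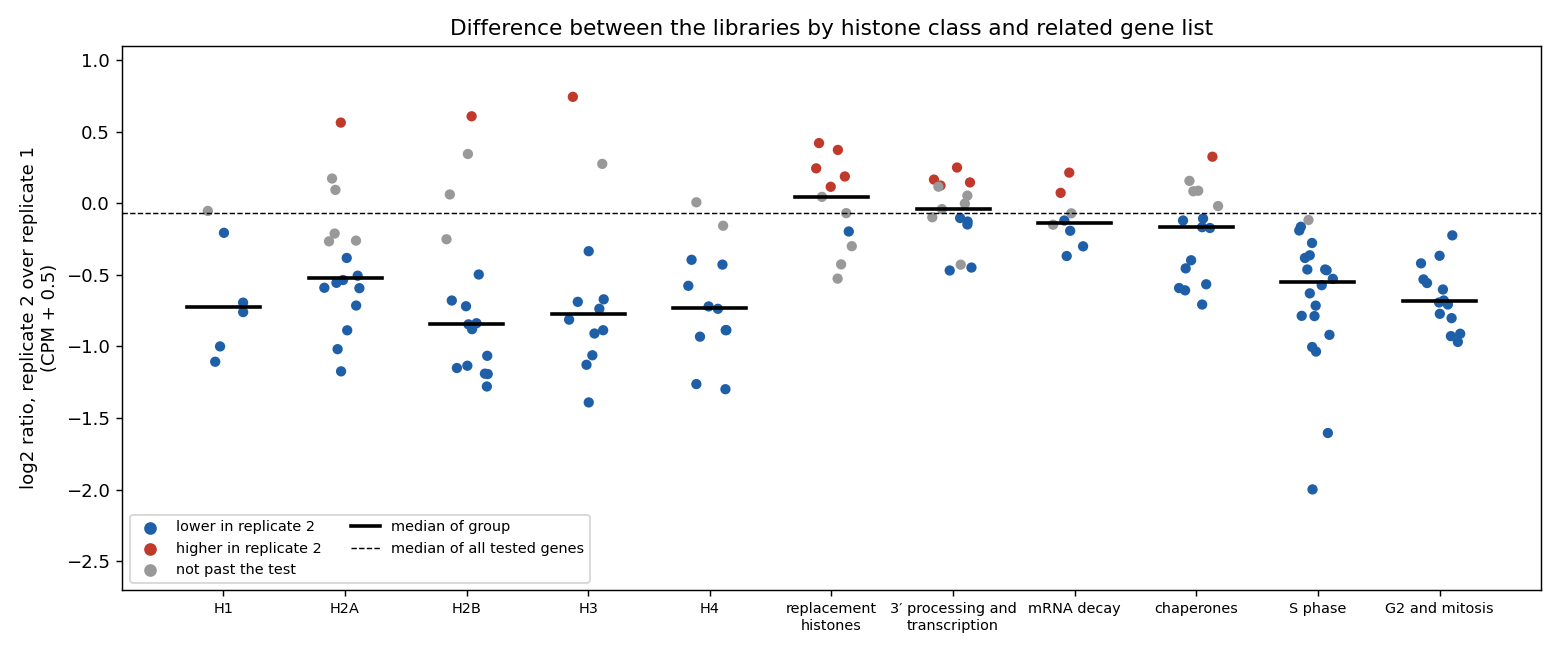
log2 ratio of replicate 2 over replicate 1 (CPM + 0.5) for each tested gene of the 5 histone classes and of 6 related lists. Blue points were lower and red points higher in replicate 2 by the binomial test, bars are medians, and the dashed line is the median of all tested genes at -0.07. The histone, S phase and mitosis medians lie between -0.84 and -0.52, and that of replacement histones is 0.05.

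With library totals, all 3 higher members lay in the smaller gene cluster, while those not past the test lay in both. By RefSeq (GRCm38.p6), 54 members are on chromosome 13 and 10 on chromosome 3, and 1 (H2bc24) was not matched. Of the 51 tested on chromosome 13, 44 were lower and none higher, with a median log2 ratio of -0.74. With TMM or DESeq2 scaling, H2bc4 on chromosome 13 was called higher as well. Of the 10 on chromosome 3, 3 were lower, 3 higher and 4 not past the test, with a median of -0.02. The 3 higher genes were H3c14, H2bc21 and H2ac18, with log2 ratios of 0.74, 0.61 and 0.56 and adjusted binomial p of 0.0043, 2.51e-05 and 0.0112. H2bc18, H3c13 and H4c14 of the same cluster were lower, at -0.85, -0.33 and -0.43. The grouping by chromosome was made after the values were seen. By the stretches above, H3c14 and H2ac18 share 100% of their sequence and H2bc21 none, and among the 3 lower genes H2bc18 and H3c13 share 100% and H4c14 none.

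Of 11 tested replacement and variant histone genes, 5 were higher in replicate 2 and 1 lower, with a median log2 ratio of 0.05, or 5 higher and 0 lower with TMM or DESeq2 scaling. With library totals these are 45.5% higher and 9.09% lower, beside 16.9% and 27.2% of all tested genes. H3f3b and H3f3a, both encoding H3.3, were higher, with 746 and 808 CPM for H3f3b and 279 and 330 CPM for H3f3a. H1f0, the linker histone of differentiated cells, was higher too, with 104 and 135 CPM, and Macroh2a1 had 123 and 140 CPM. The 1 lower gene, no longer called with either scaling, was Cenpa, the centromeric H3 variant, with 17.7 and 15.3 CPM. As summed TPM, the 12 H3 members stood at 1.20 times H3f3a and H3f3b in replicate 1 and at 0.576 times in replicate 2. The order of the TPM sums thus changed between the libraries, but this depends on the scaling by length. As CPM, the H3 members summed to 376 and 203, below H3f3b alone in both libraries. In summed TPM, H1 members exceeded H1f0 and H1f10 by 15.1-fold in replicate 1 and 9.03-fold in replicate 2.

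Among 15 genes of 3′ end processing and histone gene transcription, 5 were lower and 4 higher, at a median log2 ratio of -0.04, which turned to 0.04 with TMM scaling (2 lower and 6 higher). These are 33.3% lower and 26.7% higher, beside 27.2% and 16.9% of all tested genes. Slbp, the stem-loop binding protein, was lower, with 28.8 and 20.7 CPM, as was Casp8ap2 (FLASH), a factor of histone mRNA processing, with 14.3 and 10.3 CPM. Npat, the cyclin E-CDK2 substrate that activates histone genes, had 50.1 and 45.2 CPM and was lower too, a call lost with TMM and with DESeq2 scaling. Lsm10 of the U7 snRNP was higher, with 18.1 and 21.6 CPM. The 3 most abundant by CPM were Sympk (118 and 129 CPM), Ncbp1 (70.5 and 73.2 CPM) and Srrt (66.6 and 74.8 CPM), of which Ncbp1 was called higher with the other scalings alone, and Zfp473 was lowest with 55 and 33 counts. Of 8 decay genes 4 were lower (50%) and 2 higher (25%), at a median of -0.13, beside the same shares of all tested genes. The kinase gene Smg1 (382 and 352 CPM) was lower, though not with DESeq2 scaling. Tut7 (218 and 229 CPM) and Upf1 (114 and 133 CPM) were higher. Lsm1 was lowest of the decay genes, with 14.2 and 12.8 CPM.

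Among 15 histone chaperone genes, 10 were lower and 1 higher, at a median log2 ratio of -0.17, or 8 lower and 3 higher with TMM scaling. With library totals these are 66.7% lower and 6.67% higher, beside 27.2% and 16.9% of all tested genes. With TMM scaling, 21.4% of all tested genes were lower and 22.7% higher. The most abundant by CPM were Npm1 (227 and 201 CPM) and Atrx (111 and 98.4 CPM), both lower, and Ssrp1 (101 and 99.9 CPM), which did not pass the test. Chaf1a and Chaf1b of the CAF-1 complex, which deposits H3 and H4 behind the replication fork, had 13.2 and 9.91 CPM and 9.43 and 6.21 CPM, and both were lower. Asf1b (10.4 and 6.15 CPM) and Hat1, the acetyltransferase of new H4 (22.1 and 14.3 CPM), were lower as well. Hira, which deposits H3.3 outside replication, had 42.4 and 45.0 CPM and did not pass the test, but was called higher with TMM and with DESeq2 scaling. Daxx, another H3.3 chaperone, was the 1 higher gene with library totals, with 39.3 and 49.4 CPM.

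Genes of dividing cells were also lower in replicate 2. Among 20 S phase genes, 19 were lower and none higher (18 with TMM scaling), at a median log2 ratio of -0.55, and all 14 genes of G2 and mitosis were lower, at -0.69. Of all tested genes, 27.2% were lower (21.4% with TMM scaling). Rrm1 had 96.3 and 69.8 CPM, Pcna 64.0 and 56.0 CPM, Mcm4 49.8 and 35.9 CPM, and the helicase gene Mcm6 63.9 and 15.6 CPM. Ccne1 was lowest with 3.65 and 2.03 CPM. In the mitosis list, Mki67 had 151 and 99.5 CPM, Top2a 133 and 70.7 CPM, Ccnb1 44.8 and 25.5 CPM and Birc5, the lowest, 9.24 and 6.12 CPM. Mcm6 was the only S phase gene past edgeR's exact test, with an adjusted p of 0.0284. The summed TPM of S phase genes was 575 and 399, a 1.44-fold difference, beside 1.59-fold for the histone genes and 1.57-fold for the G2 and mitosis list. In bulk samples, fewer cells in S phase and less histone RNA per cell cannot be told apart.

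Markers of several cell types also differed between the libraries, not all in the direction of the histone genes. The 10 fibroblast markers were all lower in replicate 2, at summed levels of 6712 and 3387 TPM, and the 12 keratinocyte markers all higher, at 16433 and 25422 TPM. Over all tested genes, 27.2% were lower and 16.9% higher, or 21.4% and 22.7% with TMM scaling. Macrophage markers summed to 13096 and 14635 TPM, with 3 lower and 5 higher (2 and 7 with TMM scaling). Endothelial markers summed to 56.9 and 36.3 TPM, with 7 of 8 lower, and erythroid markers to 375 and 179 TPM, with all 4 tested lower. T cell markers summed to 2.41 and 3.30 TPM, and Trac, Trdc, Trbc1 and Trbc2 were at 0 in both libraries. The part of these cell types in the difference of the histone genes was not tested.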

How the data were processed

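Each deposited file lists raw counts per gene with a length for each gene. Per the submitters' processing notes, featureCounts and build mm39 were used. Not given in the sources used here are the aligner, annotation release, strand setting and treatment of multi-mapping reads. Libraries were made from rRNA-depleted total RNA with the NEBNext Ultra II RNA kit and sequenced as paired 150-base reads, per the labels' protocols.

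From the counts, CPM (scaled to the library total) and TPM (from the deposited length) were computed. Ratios were tested with the exact binomial test (scipy 1.17.1) on genes reaching 10 counts over both libraries, with Benjamini-Hochberg adjustment at 0.05. Alternatives were TMM and the exact test of edgeR 4.0.16, its dispersion taken from a fit with an intercept alone, and DESeq2 1.42.0 size factors. The quasi-likelihood test was not run, since 1 library per side leaves no residual degrees of freedom. Depth was 36692204 and 33489967 counts, and intervals cover counting error only. The test scripts were tested on simulated data.

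The naming rule uses no values, but the choice of this gene family, the lists and the tests was made with earlier results of these data known. The text names, per class, the 3 highest members and the lowest by TPM, all H1 genes, members at 0, the 5 largest ratios each way among called members at 5 CPM or more, 3 pairs, and the 3 highest and the lowest gene of a list. Other genes were named after their values were seen. Symbols were matched to RefSeq (GRCm38.p6) for 64 members and to GENCODE M21 through older symbols for 64. No gene coordinates of build mm39 were used here.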

Additional observations from a re-analysis of the deposited data

How the results depend on the processing

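Every median log2 ratio, for all members and for each class, kept its sign with TMM or DESeq2 scaling, other pseudocounts and other filters. TMM left 47 members lower, with 4 higher. edgeR's exact test called 0 lower and 0 higher. The log2 ratio of H1f4 turned from -0.05 to 0.0233 with TMM, 0.0296 with DESeq2 size factors and 0.0235 with edgeR, and it did not pass the test under any of them. As CPM in place of TPM, the class shares were 36.3% for H1, 8.94% for H2A and 16.7% for H4. With members of 1000 bases or less, the H2A share was 10.3%. An alternative added after seeing the data kept the 36 members with 50% or less shared sequence. It gave shares of 36.3% for H1, 6.23% for H2A, 13.6% for H2B, 17.1% for H3 and 26.7% for H4, in the same order, with 28 of the 34 tested lower and 1 higher. This set has fewer genes by construction and lost no H1 gene, so it could not displace H1 from first place. Without replicate 1 or replicate 2, 55 to 57 members reached 1 CPM. No paired analysis was possible because there is a single group. The cause of these shifts was not tested.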

Other observations

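Histone genes outside the naming rule add to these classes, and H4f16 would lift the H4 sum above that of H1 in replicate 1. H4f16, another H4 gene, had 1703 counts (262 TPM) in replicate 1 and 1116 (188 TPM) in replicate 2, and was lower in replicate 2 by the exact binomial test at a log2 ratio of -0.47. H2ax, the H2A variant of DNA damage signalling, and H2aw had no count in either library, and the chaperone gene Nap1l1 had 4 and 6. Whether reads at these genes were given to an overlapping gene was not tested. Of 27 histone variant genes known from the germline, 4 had any count. The oocyte linker histone gene H1f8 was highest among them, with 39 and 70 counts, and was higher in replicate 2 at a log2 ratio of 0.73.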
